A study of Homo sapiens with 16 samples.

Results

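A set of 8 proteoglycan genes was followed through the states of 1 cell line: DCN (decorin), BGN (biglycan), ASPN (asporin), LUM (lumican), FMOD (fibromodulin), PRELP (prolargin), OGN (osteoglycin, also called mimecan) and VCAN (versican). They were taken by gene symbol, as the rows of the count tables whose Ensembl identifier carries 1 of these symbols. Each symbol matched 1 row, which gave 8 of the 60448 genes counted.

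Proteoglycans are proteins that carry long sulfated sugar chains called glycosaminoglycans. The first 7 genes encode small leucine-rich proteoglycans, secreted proteins with a curved leucine-rich repeat core that binds collagen and sets the width and spacing of its fibrils. Decorin, biglycan and asporin form class I of the family, lumican, fibromodulin and prolargin class II, and osteoglycin belongs to class III. Decorin and biglycan carry chondroitin or dermatan sulfate chains and also bind growth factors and cell surface receptors. Versican is a much larger proteoglycan of another family: it binds hyaluronan at one end, carries many chondroitin sulfate chains, and fills loose, hydrated matrix. In the mammary gland these genes are known mainly as products of stromal fibroblasts, and DCN, LUM and VCAN are commonly used to mark mesenchymal states.

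The cells were HMLER, human mammary epithelial cells made immortal and tumorigenic by introduced genes that include TERT and an oncogenic HRAS. All of them therefore carry these transgenes, and all were grown in 1 mammary epithelial medium with insulin, EGF and hydrocortisone. There were 16 libraries in 8 groups of 2. Cells of the C1 group (genotype wild type) are a stable epithelial state. C2-Epi (wild type) is an epithelial state described as plastic, and C2-Mes (wild type) is a mesenchymal one. The other groups are C1 cells with a guide RNA: sgControl (genotype given as wild type), sgEED-Epi and sgEED-Mes (EED-KO, epithelial and mesenchymal) and sgKMT2D-Epi and sgKMT2D-Mes (KMT2D-KO, epithelial and mesenchymal). KMT2D methylates histone H3 at active enhancers. EED belongs to PRC2, the complex whose histone H3 methylation marks silenced genes. Which libraries came from sorted and which from unsorted cultures is not stated, nor is it stated whether groups grew from single clones or whether the 2 libraries of a group were separate cultures. The p-values below thus measure the spread between these libraries, which may be technical.

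Total counts ran from 18872124 to 31950649 per library, both in C2-Mes. Log2 values of the 2 C2-Mes libraries correlated with r = 0.967 and differed with an SD of 0.89, against r of at least 0.988 and SDs of at most 0.493 in the other groups, so over all genes C2-Mes had the widest spread. The deposited tables of these 2 libraries are also named after different schemes, for a reason the labels do not give. Among the 8 genes, VCAN and LUM spread as widely in sgEED-Epi (203 ± 116 and 3.18 ± 1.37 CPM, SD, n = 2). Levels are CPM, counts per 1e6 after TMM scaling of the libraries. The mean level of EED RNA was 5.36 CPM in sgEED-Mes, 28.1 in sgEED-Epi and 24.1 with the control guide, and that of KMT2D RNA 81.7 in sgKMT2D-Mes, 126 in sgKMT2D-Epi and 80.4 with the control guide; RNA level is no check of a small edit in either gene. The 7 epithelial markers (CDH1, EPCAM, KRT5, KRT14, GRHL2, ESRP1 and DSP) summed to 5200 to 13400 CPM in the epithelial libraries, 62 to 85.2 in C2-Mes, 75.2 to 78.4 in sgKMT2D-Mes and 1060 to 1210 in sgEED-Mes, where DSP alone gave 908 and 1089. The 7 mesenchymal markers summed to 13200 to 24300 CPM in the epithelial and 41100 to 146000 in the mesenchymal libraries. The 7 leukocyte markers summed to at most 1.93 CPM in any library, and 6 endothelial markers to 1.41 to 4.6 CPM, except 19.9 and 32.2 in C2-Mes. Of the 5 endothelial markers tested, 3 rose and 0 fell in C2-Mes against C2-Epi, where 39.6% of all tested genes were called. CDH5 was at 0 in C2-Mes, as in C2-Epi, sgControl, sgEED-Epi, sgEED-Mes and sgKMT2D-Mes. Muscle markers summed to at most 0.6 CPM and cartilage markers to between 31 and 135 CPM, lowest in C2-Mes and at 91.7 to 92.3 in sgKMT2D-Mes. Of the cartilage markers, COL2A1 was at 0 in C2-Mes and sgKMT2D-Mes, and COL9A1 in every group but sgEED-Mes.

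The genes lie at 5 places in the genome (GRCh38 coordinates, gene models of GENCODE 29). DCN (ENSG00000011465, chr12:91140484-91183123) and LUM (ENSG00000139329, chr12:91102629-91111831) are neighbours on the minus strand with 28.7 kb between them. OGN (ENSG00000106809, chr9:92383967-92404696) and ASPN (ENSG00000106819, chr9:92456205-92482506) lie 51.5 kb apart, also on the minus strand. FMOD (ENSG00000122176, chr1:203340628-203351758, minus strand) and PRELP (ENSG00000188783, chr1:203475828-203491352, plus strand) are separated by 124.1 kb. BGN (ENSG00000182492, chrX:153494939-153509554, plus strand) and VCAN (ENSG00000038427, chr5:83471465-83582303, plus strand) stand alone. Counts are over annotated exons. Only VCAN shares exon sequence with another gene, 453 bp (3.1% of its exons) with the antisense gene VCAN-AS1, and whether the counting used strand is not given in the sources used here.

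Promoter sequence was at hand for 6 of the 8 genes, in RefSeq windows of 300 bases (GRCh38.p14) from 250 before to 50 after each start; DCN and LUM were not in that table. The windows differed in CG dinucleotides, the sites of DNA methylation. BGN had 19 CG, VCAN 15, FMOD 10, ASPN 3, PRELP 1 and both start sites of OGN 0, against a median of 14 over 35116 promoters. The number for BGN was above that of 57.1% of promoters, the number for ASPN above 18.2%, and OGN was at the lowest possible number. Upstream stretches are printed for BGN, which has the most CG and was read in every library, for OGN, which has none, and for its neighbour ASPN, both at 0 in most epithelial libraries. The number of CG did not sort the genes by how they were read: FMOD, with 10, was at 0 in 14 libraries, and PRELP, with 1, was read at up to 6 counts. They run 5′ to 3′ on the strand of the gene and end before its first annotated exon, and capitals mark CG. The stretches are chrX:153494730-153494938 (plus strand), chr9:92404700-92404949 (minus strand) and chr9:92482507-92482756 (minus strand).
BGN: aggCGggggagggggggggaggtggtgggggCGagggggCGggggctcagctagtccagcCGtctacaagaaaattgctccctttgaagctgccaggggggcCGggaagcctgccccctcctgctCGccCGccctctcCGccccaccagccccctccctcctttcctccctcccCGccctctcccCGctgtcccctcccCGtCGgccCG
OGN: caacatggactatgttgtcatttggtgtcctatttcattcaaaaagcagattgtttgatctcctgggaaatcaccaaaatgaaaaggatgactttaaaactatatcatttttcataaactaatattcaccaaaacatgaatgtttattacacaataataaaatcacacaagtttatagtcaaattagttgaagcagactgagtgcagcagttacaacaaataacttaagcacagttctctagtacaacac
ASPN: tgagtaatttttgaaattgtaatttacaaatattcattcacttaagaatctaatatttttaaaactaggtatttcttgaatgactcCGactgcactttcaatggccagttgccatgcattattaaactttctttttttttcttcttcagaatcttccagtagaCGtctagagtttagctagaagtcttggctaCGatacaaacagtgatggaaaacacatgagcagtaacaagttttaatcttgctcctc
Motifs were searched, 3 in all, on both strands of the 300-base windows. TATAAA was in the FMOD and both OGN windows (11.5% of all promoters hold it). CACCTG, the E-box form bound by ZEB and SNAI factors, was in none of them (20.6% of all promoters), and TGANTCA, the AP-1 form, was in none either (7.71%). No assay of chromatin or methylation was analysed, so these letters are a description of the windows.

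**Figure D1:**
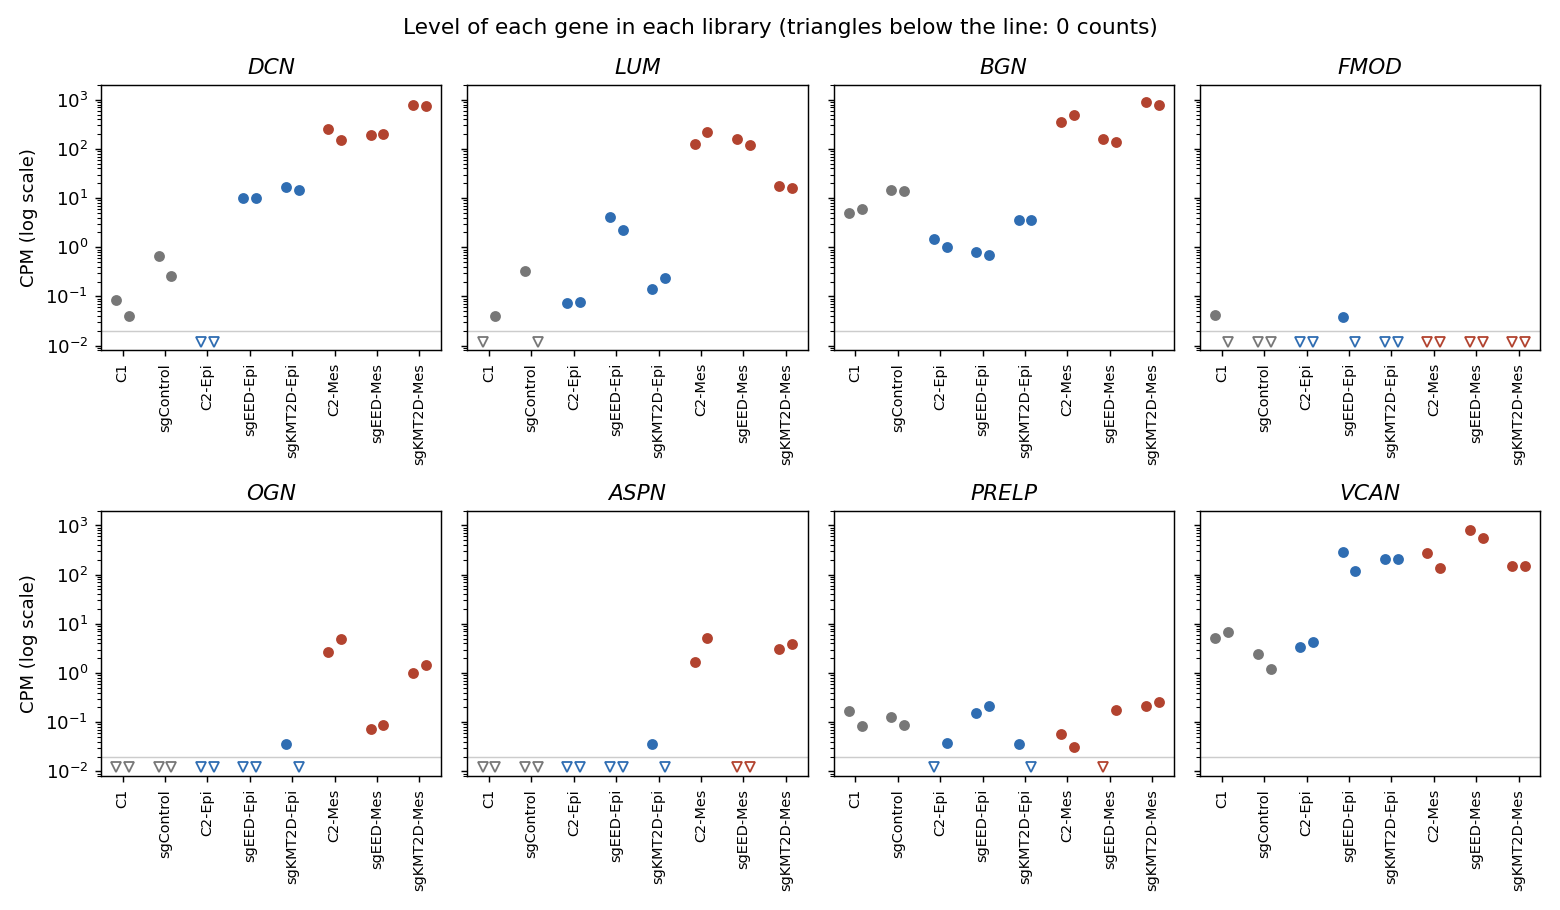
Level of each of the 8 genes in each of the 16 libraries, in CPM on a log axis. Grey points are C1 and sgControl, blue the other epithelial groups, red the mesenchymal groups, and open triangles under the line are libraries with 0 counts. DCN, LUM and BGN are highest in the red groups, VCAN is also high in sgEED-Epi and sgKMT2D-Epi, and FMOD and PRELP stay near 0 throughout.

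Decorin RNA was nearly absent from the unedited epithelial cells, intermediate in both edited epithelial groups and abundant in all mesenchymal ones. DCN had 0 counts in both C2-Epi libraries, 2 and 1 counts in C1 (0.0849 and 0.0409 CPM) and 16 and 6 in sgControl (0.671 and 0.257 CPM). It reached 10.2 and 10.1 CPM in sgEED-Epi and 16.7 and 14.9 in sgKMT2D-Epi. The mesenchymal libraries read 258 and 152 CPM in C2-Mes, 191 and 196 in sgEED-Mes, and 773 and 758 in sgKMT2D-Mes. The 3 kinds of group did not overlap: every mesenchymal library was above every edited epithelial one, and every edited epithelial one above C1, C2-Epi and sgControl. Among the mesenchymal groups, only C2-Mes and sgEED-Mes overlapped.

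Biglycan RNA was higher in every mesenchymal than in any epithelial library, and unlike decorin it was read in all of them. BGN stood at 5.05 and 6.01 CPM in C1, 14.4 and 13.9 in sgControl, 1.48 and 0.999 in C2-Epi, 0.80 and 0.702 in sgEED-Epi, and 3.58 and 3.63 in sgKMT2D-Epi. It stood at 347 and 493 CPM in C2-Mes, 161 and 138 in sgEED-Mes, and 892 and 799 in sgKMT2D-Mes. No 2 groups next to each other in this order overlapped, from sgKMT2D-Mes through C2-Mes, sgEED-Mes, sgControl, C1, sgKMT2D-Epi and C2-Epi down to sgEED-Epi. C2-Epi, sgEED-Epi and sgKMT2D-Epi were thus the 3 lowest groups, under C1 and sgControl.

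Asporin, a class I protein without a glycosaminoglycan chain that is known to bind collagen and TGF-beta, was read only at low levels. ASPN had 29 and 165 counts in C2-Mes (1.70 and 5.27 CPM) and 74 and 88 in sgKMT2D-Mes (3.10 and 3.85 CPM). In sgEED-Mes it was at 0 in both libraries, and among the 10 epithelial libraries 1 count was read, in sgKMT2D-Epi. The upper limit that a reading of 0 allows, 3 counts, equals 0.105 to 0.132 CPM in the libraries at 0, for counting error only.

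Lumican RNA, which encodes a keratan sulfate proteoglycan of cornea, skin and stroma, was high in 2 mesenchymal groups and lower in the third. LUM stood at 123 and 220.4 CPM in C2-Mes and 159 and 122 in sgEED-Mes, which overlapped, and at 17.4 and 16.2 in sgKMT2D-Mes. Among epithelial libraries it reached 4.15 and 2.21 CPM in sgEED-Epi, from 109 and 63 counts. It had 4 and 6 counts in sgKMT2D-Epi, 8 and 0 in sgControl, 2 and 2 in C2-Epi, and 0 and 1 in C1. LUM and its neighbour DCN therefore ranked the groups differently: DCN was highest in sgKMT2D-Mes, LUM lowest there among the mesenchymal groups.

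Fibromodulin and prolargin, the other class II members, were hardly read at all. FMOD had 1 count in a C1 and 1 in an sgEED-Epi library and 0 in the other 14. PRELP had between 0 and 6 counts in every library, at most 0.263 CPM. Neither passed the low-count filter, so 6 of the 8 genes were tested.

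Osteoglycin RNA was read in the same 2 mesenchymal groups as asporin. OGN had 45 and 151 counts in C2-Mes (2.63 and 4.82 CPM) and 24 and 34 in sgKMT2D-Mes (1.00 and 1.49 CPM), without overlap. It had 2 and 2 counts in sgEED-Mes, 1 count in 1 sgKMT2D-Epi library and 0 in the other 9 epithelial libraries.

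Versican RNA did not follow the split into epithelial and mesenchymal groups. VCAN stood at 5.05 and 6.92 CPM in C1, 3.36 and 4.34 in C2-Epi and 2.48 and 1.20 in sgControl. Both edited epithelial groups were far higher, with 284 and 121 CPM in sgEED-Epi and 209.8 and 209 in sgKMT2D-Epi. These overlapped the 277 and 139 CPM of C2-Mes. The sgKMT2D-Mes libraries, at 153 and 152, lay within the range of C2-Mes and of sgEED-Epi but under sgKMT2D-Epi. The highest values were 816 and 566 CPM in sgEED-Mes, above every other library.

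The epithelial and mesenchymal groups of 1 background were compared first, which asks how far these genes differ between the states in cells that were not edited and in cells with a guide against EED or KMT2D. In C2, all 6 tested genes rose, where 39.6% of the 18285 tested genes were called, 3845 higher and 3401 lower (edgeR quasi-likelihood test, Benjamini-Hochberg adjusted p under 0.05 over all tested genes). In the sgEED pair 4 rose, DCN, LUM, BGN and VCAN, where 36.5% of tested genes were called, 3506 higher and 3167 lower, while OGN and ASPN held too few counts in both groups for a fold. In the sgKMT2D pair 5 rose and VCAN did not pass, where 50.8% of tested genes were called, 4903 higher and 4391 lower. A gene read only in mesenchymal libraries passes the low-count filter through them alone, as OGN and ASPN did, so these counts describe the tested genes and not all 8. In bulk RNA, fewer cells of a type and less RNA per cell cannot be told apart.

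BGN changed by close amounts in each of the 3 pairs. It rose by 8.39 ± 0.26 on the log2 scale (± SE; adjusted p 4.4e-11) in C2, by 7.63 ± 0.26 (1.5e-10) in the sgEED pair and by 7.87 ± 0.24 (6.4e-11) in the sgKMT2D pair, which are ratios of 339, 199 and 235. DCN rose at least 1830-fold in C2, where the epithelial libraries held 0 counts (adjusted p 4.4e-10), but 19.1-fold in the sgEED pair (log2 4.26 ± 0.27, 6.4e-08) and 48.5-fold in the sgKMT2D pair (5.60 ± 0.28, 6.2e-09). LUM rose by 11.08 ± 0.63 in C2 (9.7e-09), against only 4 counts in the C2-Epi group, for which counting error alone allows a ratio of 975 to 9170. It rose 44.2-fold in the sgEED pair (5.47 ± 0.42, 2.9e-07) and 88.5-fold in the sgKMT2D pair (6.45 ± 0.56, 7.1e-07).

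OGN and ASPN rose in C2 at least 33.3-fold (adjusted p 1.6e-05) and at least 31.1-fold (2.8e-04). Without C2-Mes replicate 2, which held 165 of the ASPN counts against 29 in replicate 1, the fitted log2 change of ASPN dropped by more than 1.5 times on the linear scale, to 8.42, which is no bound. In the sgKMT2D pair both rose against 1 count in the epithelial group. The ratio of summed counts was 66.1 for OGN (95% exact counting interval 11.4 to 2660; adjusted p 2.3e-04) and 185 for ASPN (32.7 to 7340; 3e-04). That count lies in sgKMT2D-Epi replicate 1, and without replicate 2 of the group the fitted log2 changes were 4.87 and 6.35. VCAN rose 53.9-fold in C2 (5.75 ± 0.48, 5e-07) and 3.41-fold in the sgEED pair (1.77 ± 0.39, 0.0029). Without C2-Mes replicate 1 the VCAN change in C2 was 5.06, and without sgEED-Epi replicate 1 that in the sgEED pair was 2.50. In the sgKMT2D pair its log2 difference was −0.46 ± 0.38 (adjusted p 0.34), and the 2 mesenchymal libraries, at 153 and 152 CPM, were both under the epithelial ones. That VCAN difference passed the threshold without the low-count filter (−0.54, adjusted p 0.0099) and in a fit of these 4 libraries alone (−0.48, 4e-06), so its call depends on which genes and libraries share the estimate of spread.

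**Figure D2:**
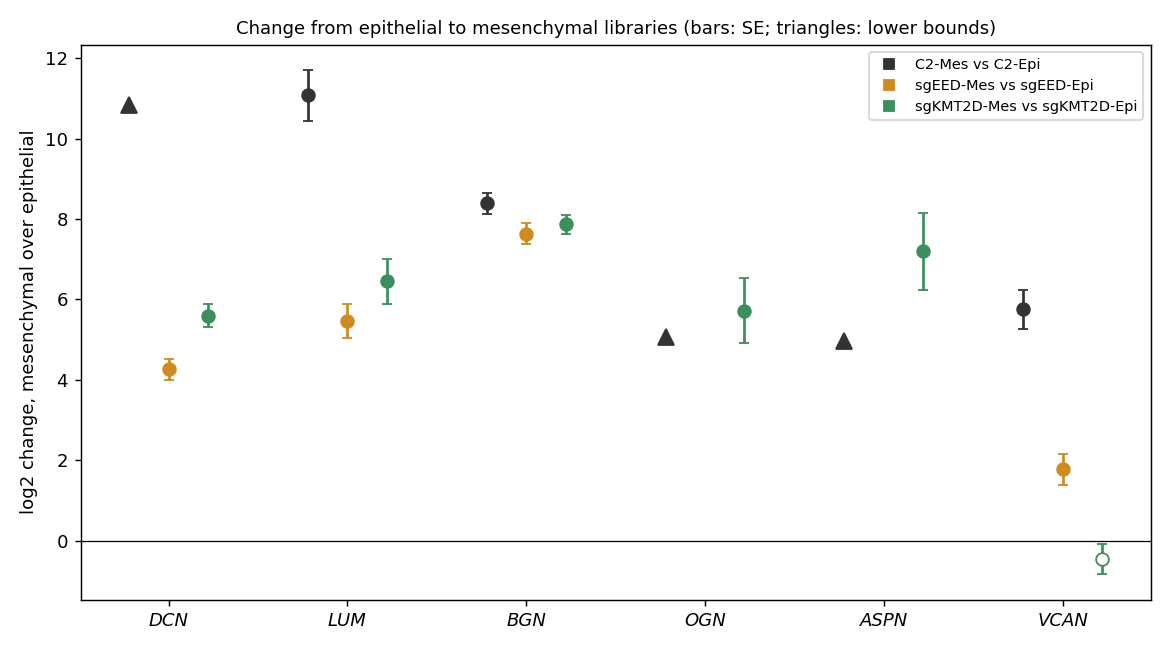
Log2 change from the epithelial to the mesenchymal group for the 6 tested genes in C2 (black), the sgEED pair (orange) and the sgKMT2D pair (green). Filled points passed the test, the open point (VCAN, −0.46) did not, bars are 1 SE, and triangles are lower bounds where the epithelial libraries held 0 counts. OGN and ASPN in the sgKMT2D pair rest on 1 epithelial count and are left out for the sgEED pair; BGN lies between 7.63 and 8.39 in all pairs, whereas VCAN falls from 5.75 to −0.46.

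Whether these changes differed between backgrounds was tested as interactions. For DCN the sgEED minus the C2 change was −6.58 or lower on the log2 scale (adjusted p 5e-07), and the sgKMT2D minus the C2 change was −5.24 or lower (4.6e-06), both bounds because C2-Epi held 0 counts, and the sgEED minus the sgKMT2D change was −1.34 ± 0.33 (0.013). VCAN gave −3.98 ± 0.58 (2.4e-04) for sgEED minus C2, −6.21 ± 0.60 (8.5e-06) for sgKMT2D minus C2 and 2.23 ± 0.55 (0.011) for sgEED minus sgKMT2D. LUM gave −5.61 ± 0.83 (2.7e-04) and −4.63 ± 1.28 (0.018) against C2, and −0.98 ± 0.78 (0.42) between the edited pairs. The interactions of BGN did not pass, at −0.76 ± 0.34 (0.14), −0.52 ± 0.29 (0.23) and −0.24 ± 0.33 (0.66), which does not show that its changes were equal. Those of OGN and ASPN between sgKMT2D and C2 did not pass either (adjusted p 0.28 and 0.6). In all, 3, 3 and 2 of the tested genes had a called interaction, where 21.1%, 24.1% and 20.1% of all tested genes had one.

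Some of these calls rest on single libraries. The LUM interaction of sgKMT2D minus C2 was lost without C2-Epi replicate 1 (−4.57, adjusted p 0.055) and without sgKMT2D-Epi replicate 1 (−4.95, 0.051) or 2 (−4.23, 0.13). The DCN interaction of sgEED minus sgKMT2D was lost without sgEED-Mes replicate 2 (0.061), sgKMT2D-Epi replicate 1 or 2 (0.052 and 0.075) or sgKMT2D-Mes replicate 1 or 2 (0.063 and 0.056), and that of VCAN without sgKMT2D-Mes replicate 1 or 2 (0.052 each). That of BGN for sgEED minus C2 was called without C2-Mes replicate 1 (−0.92, 0.029), as was the one for sgKMT2D minus C2 (−0.71, 0.043). Calls of VCAN that held moved in size: without C2-Mes replicate 1 to −3.34 for sgEED minus C2 and −5.59 for sgKMT2D minus C2, and without sgEED-Epi replicate 1 to −3.18 for sgEED minus C2 and 3.03 for sgEED minus sgKMT2D.

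The level in the epithelial group as a share of the mesenchymal mean of the same background puts the genes on 1 scale. BGN stood at 0.295% in C2, 0.502% in the sgEED pair and 0.426% in the sgKMT2D pair. LUM stood at 0.0434%, 2.26% and 1.13%, and DCN at 0% (0 counts), 5.23% and 2.06%. VCAN stood at 1.86% in C2, 29.3% in the sgEED pair (17.5% and 41.2% for the 2 epithelial libraries) and 138% in the sgKMT2D pair. In the same libraries the fibrillar collagen gene COL3A1 stood at 0.0458%, 0.497% and 0.25%, and COL1A1, another fibrillar collagen gene, at 3.89%, 4.1% and 19.5%. The transcription factor genes ZEB1 and PRRX1 stood at 1.51%, 7.86% and 3.08% and at 0.0342%, 2.61% and 0.233%. The intermediate filament gene VIM stood at 15.6%, 29.1% and 39.9%, and the fibronectin gene FN1 at 34.4%, 16.6% and 15.5%. Within 1 group of epithelial libraries the genes thus held very different shares of their mesenchymal level, from 0.426% for BGN to 138% for VCAN in the sgKMT2D pair.

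**Figure D3:**
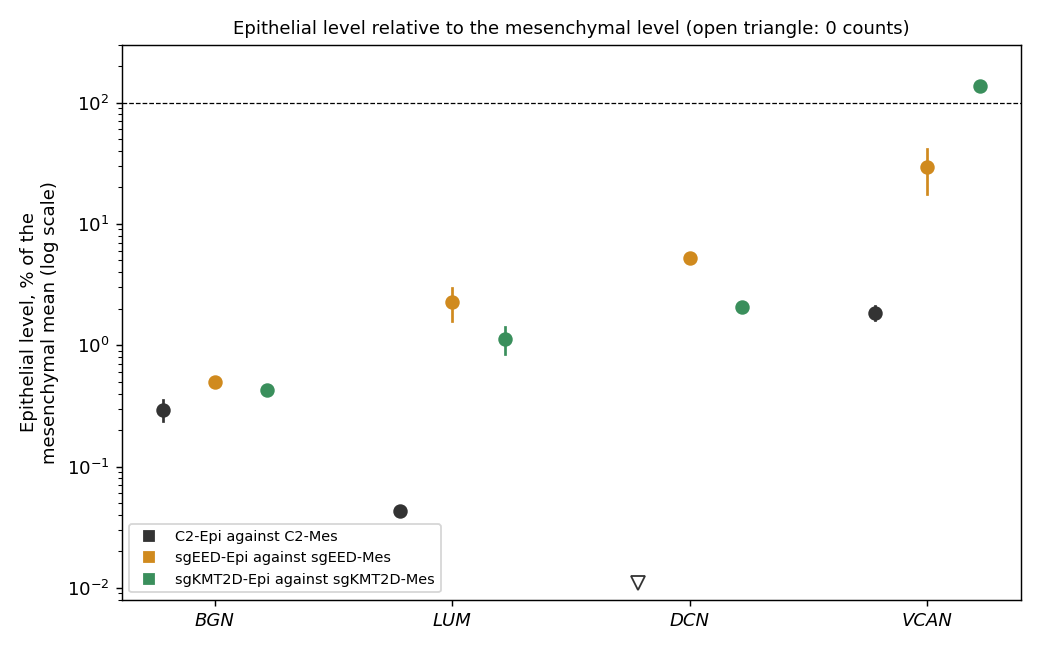
Level of BGN, LUM, DCN and VCAN in the epithelial libraries as a percent of the mean of the mesenchymal libraries of the same background, on a log axis, with equal levels dashed. Points are the mean and lines the range of the 2 epithelial libraries, and the open triangle is DCN at 0 counts in C2-Epi. BGN stays under 1% in all 3 backgrounds, while VCAN runs from 1.86% to 138%.

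The epithelial groups were then compared with each other, which asks how sgEED-Epi, sgKMT2D-Epi and C2-Epi differ from sgControl or C1 in these genes. Versican and decorin were higher in both edited groups than with the control guide, and biglycan was lower. In sgEED-Epi against sgControl, VCAN rose 110-fold (6.78 ± 0.52, adjusted p 5.6e-07), DCN 21.8-fold (4.43 ± 0.35, 9.2e-07) and LUM 19-fold (4.19 ± 0.65, 1.7e-04), while BGN fell to 0.053 of its level (−4.23 ± 0.24, 3.9e-08). In sgKMT2D-Epi against sgControl, VCAN rose 114-fold (6.83 ± 0.52, 3.9e-07) and DCN 34-fold (5.07 ± 0.34, 2.5e-07), BGN fell to 0.254 of its level (−1.98 ± 0.20, 3.2e-06), and LUM did not pass (0.15 ± 1.04, 0.93). These 2 comparisons share the sgControl libraries. Of the 6 tested genes, 4 and 3 were called, against 48.8% and 56.0% of all tested genes called in either direction. OGN and ASPN are among the 6 but held too few counts in these groups for a fold. In sgKMT2D-Epi, 3 of 6 is not above the share of all genes. With C1 in place of sgControl the same genes were called with other sizes: VCAN at 5.08 (7.2e-06) and 5.13 (3.8e-06), and BGN at −2.88 (3.7e-06) and −0.62 (0.029). DCN was then 162 (counting interval 55.2 to 789) and 253 (86.4 to 1230) times its C1 level, which rests on 3 counts. Without sgControl replicate 1, which held all 8 LUM counts of its group, DCN was at 5.28 and 5.92 and VCAN at 7.40 and 7.45, and LUM had no control count left to set a fold against. Without replicate 2 LUM was at 3.28 in sgEED-Epi. Without sgEED-Epi replicate 1 VCAN was at 6.05 there. A correction for GC content and gene length left each of these calls against sgControl and lowered its size, in sgKMT2D-Epi to 3.94 for DCN, 6.24 for VCAN and −0.85 for BGN, and in sgEED-Epi to 3.58 for DCN, 3.39 for LUM and −3.56 for BGN.

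Unedited C2-Epi did not show that rise. Against C1, BGN fell to 0.224 of its level (−2.15 ± 0.23, adjusted p 1.7e-05; −1.51 with the correction for GC content and length), and VCAN, at 3.85 ± 0.695 CPM against 5.98 ± 1.32 (SD, n = 2), did not pass (−0.64 ± 0.44, 0.30). That VCAN difference was called without the low-count filter (−0.55, 0.042) and in a fit of the 4 libraries alone (−0.61, 0.0092). DCN, at 0 counts in C2-Epi and 3 in C1, could not be compared. Of the 6 tested genes 1 was called, against 30.7% of all tested genes, and only 2 of the 6 held counts enough for a fold.

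Cells with the control guide differed from C1 in 3 of these genes. In sgControl against C1, BGN rose 2.56-fold (1.36 ± 0.20, adjusted p 3e-04), DCN rose from 3 to 22 counts (ratio 7.46, counting interval 2.24 to 38.9; 0.015), and VCAN fell to 0.307 of its level (−1.70 ± 0.48, 0.020), where 27.1% of all tested genes were called. The DCN call was lost without C1 replicate 1 (0.07) or 2 (0.12) and without sgControl replicate 1 (0.14), and its log2 change was 3.49 with the correction for GC content and length. The VCAN call was lost without C1 replicate 1 (0.05) or 2 (0.12) and without sgControl replicate 2 (0.19), and without sgControl replicate 1 it was −2.32. LUM did not pass (0.25).

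The 3 mesenchymal groups were compared last. All 3 held DCN, BGN, LUM and VCAN RNA, though not at equal levels. OGN and ASPN were at 4 and 0 counts in sgEED-Mes. OGN and ASPN passed the low-count filter only through libraries of C2-Mes and sgKMT2D-Mes. The numbers of called genes in these comparisons therefore describe the tested genes and not all 8. Against C2-Mes, sgEED-Mes had lower BGN (−1.49 ± 0.18, adjusted p 1.5e-05) and higher VCAN (1.74 ± 0.39, 0.0029). OGN was lower there at a ratio of summed counts of 0.0197 (counting interval 0.0053 to 0.0511; 4.6e-05), and ASPN at least 28.9-fold lower (3.1e-04). DCN (−0.08 ± 0.23, 0.82) and LUM (−0.29 ± 0.33, 0.52) did not pass. Without C2-Mes replicate 2 the VCAN difference was 1.26 (0.062) and that of DCN −0.47 (0.03), and without C2-Mes replicate 1 that of VCAN was 2.33. Without replicate 2 the fitted ASPN change, which is no bound, was smaller by more than 1.5 times on the linear scale, at −8.42. The 4 called genes stand against 41.9% of all tested genes.

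Against C2-Mes, sgKMT2D-Mes had higher DCN (1.90 ± 0.24, adjusted p 4.4e-05) and BGN (1.01 ± 0.18, 5.7e-04) and LUM at 0.0981 of its level (−3.35 ± 0.37, 1.3e-05). OGN was at 0.334 of its level (−1.60 ± 0.41, 0.013), a call lost without C2-Mes replicate 2 (−1.14, 0.054) or sgKMT2D-Mes replicate 1 (−1.35, 0.11). ASPN (−0.05 ± 0.49, 0.97) and VCAN (−0.45 ± 0.38, 0.41) did not pass. The 4 called genes stand against 33.4% of all tested genes. In a fit of these 4 libraries alone BGN (0.99, 0.057) and OGN (−1.61, 0.087) were not called.

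Set against each other, the edited mesenchymal groups differed in all 6 tested genes, where 31.1% of all tested genes were called. OGN and ASPN, at 4 and 0 counts in sgEED-Mes, were among the tested genes only through the other mesenchymal groups, so the 2 shares are not alike. VCAN (4.54-fold, 2.18 ± 0.40, adjusted p 9.5e-04) and LUM (8.34-fold, 3.06 ± 0.37, 3.1e-05) were higher in sgEED-Mes. DCN (−1.98 ± 0.24, 3.9e-05), BGN (−2.50 ± 0.19, 3e-07), OGN (−3.88 ± 0.65, 0.0014) and ASPN (at least 28.8-fold lower, 5.4e-04) were lower there. These 3 comparisons share their groups in pairs and are not independent of each other. The epithelial markers given above, highest among the mesenchymal groups in sgEED-Mes through DSP, differ along with these genes, and their part in the result was not tested.

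Divided by the length of the annotated exons, the levels can be compared between genes. The CPM per kb of exon of the 8 genes summed to 2.7 ± 0.355 in C1 (SD, n = 2), 6.01 ± 0.316 in sgControl, 0.793 ± 0.0862 in C2-Epi, 15.8 ± 8.3 in sgEED-Epi and 16.9 ± 0.119 in sgKMT2D-Epi. The sums were 261 ± 53.8 in C2-Mes, 169 ± 27.2 in sgEED-Mes and 422 ± 27.6 in sgKMT2D-Mes. BGN made up most of the sum in C1 (83.6%), sgControl (96.2%), C2-Epi (63.1%), C2-Mes (65.4%) and sgKMT2D-Mes (81.7%). VCAN made up 84.9% in sgEED-Epi and 83.6% in sgKMT2D-Epi. The sgEED-Mes sum was spread most evenly, over BGN (36.1%), LUM (27.5%), VCAN (27.3%) and DCN (9.04%). LUM took 21.4% in C2-Mes but 1.33% in sgKMT2D-Mes. The exons of DCN cover 12847 bp in all but 7156 bp in its longest transcript, by which its share was 10.7%, 14.4% and 22.4% in C2-Mes, sgEED-Mes and sgKMT2D-Mes, against 6.48%, 9.04% and 14.1% by all exons.

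**Figure D4:**
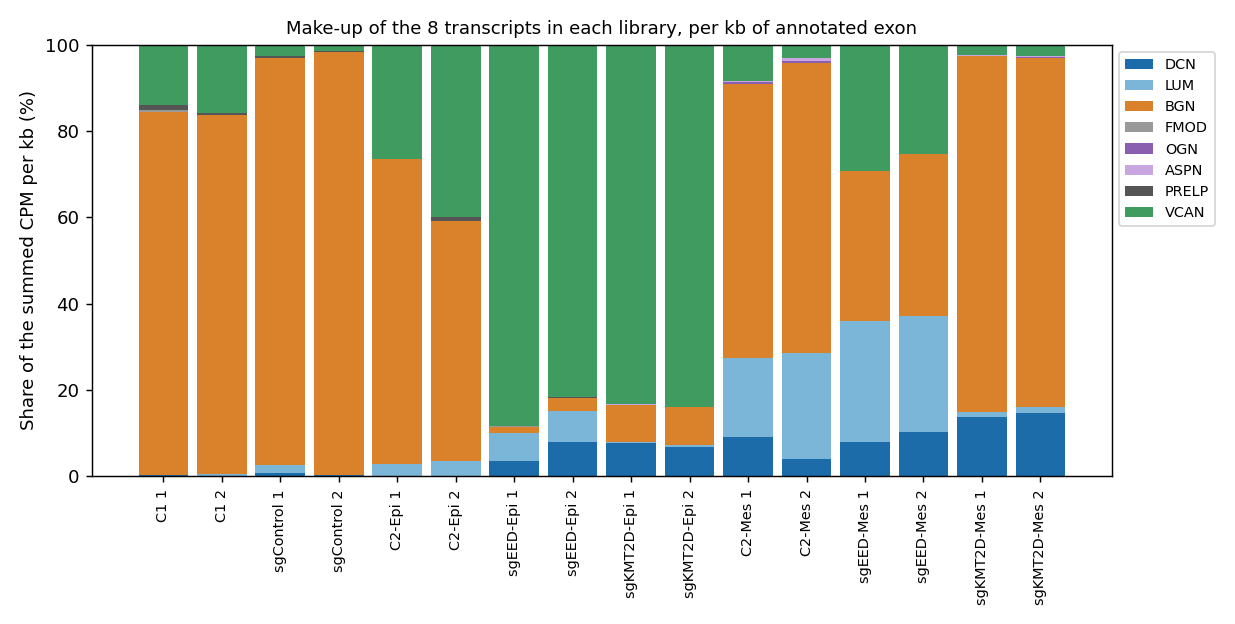
Share of each of the 8 genes in their summed CPM per kb of annotated exon, in percent, with 1 bar per library. BGN (orange) fills most of the bars of C1, sgControl, C2-Epi, C2-Mes and sgKMT2D-Mes, VCAN (green) those of sgEED-Epi and sgKMT2D-Epi, and LUM (light blue) is large only in C2-Mes and sgEED-Mes among the mesenchymal groups.

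Likeness of pattern was measured as the mean absolute difference of log2 CPM, each gene centred on its own mean over the 16 libraries, and is a description over libraries that share their groups. Among the tested members, OGN and ASPN were closest at 0.37, where both are at or near 0 in most libraries. BGN was at 1.81 from ASPN and 1.84 from OGN, DCN at 1.98 from its neighbour LUM, and BGN at 3.01 from VCAN. The nearest genes were sought among tested genes with a proper symbol, without antisense, long intergenic non-coding and clone-named genes. Among these, PTX3 (0.90), CADM3 (0.95) and PAPPA (1.12) were nearest to DCN, and PLCXD3 (0.79), COL6A2 (0.94) and SDK1 (1.16) nearest to LUM. PCOLCE (0.85), MMP2 (1.04) and CLEC3B (1.10) were nearest to BGN, and ADAM23 (0.97), PMP22 (1.01) and ARHGAP28 (1.05) nearest to VCAN. PCOLCE, for example, stood at 173 ± 70.5 CPM in C2-Mes, 41.9 ± 12.6 in sgEED-Mes and 357 ± 16.5 in sgKMT2D-Mes and at most 4.6 ± 0.277 in the epithelial groups. ADAM23 stood at 24 ± 0.171 CPM in sgEED-Epi and 13.3 ± 0.125 in sgKMT2D-Epi against 0.575 ± 0.398 in sgControl.

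Of 10 other genes of the small leucine-rich family, 4 were tested (ECM2, OMD, TSKU and PODNL1), and KERA, EPYC, OPTC, CHAD, NYX and PODN had too few counts. Of these, 3 rose in C2, 1 in the sgEED and 2 in the sgKMT2D pair, and none fell, against 39.6%, 36.5% and 50.8% of all tested genes called in these pairs. In the edited pairs the 1 and 2 of 4 called are not above those shares. TSKU, which encodes the secreted protein tsukushi, rose from 65.3 to 106 CPM in C2 (0.70, adjusted p 0.0096). PODNL1 rose by 3.05 (7.8e-06) in the sgEED pair and by 2.04 (3.4e-04) in the sgKMT2D pair.

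Genes that build or bind the sugar chains and the fibrils were counted from lists, each to be read against the same 39.6%, 36.5% and 50.8% of all tested genes called in the 3 pairs. Of 23 tested enzymes of the glycosaminoglycan linker and of chondroitin or dermatan sulfate, 16 rose and 3 fell in C2 (median log2 1.04), 11 rose and 3 fell in the sgEED pair (0.55), and 13 rose and 2 fell in the sgKMT2D pair (0.55). XYLT1, which encodes an enzyme that starts the linker, rose by 3.66 in C2 (8e-08) and 5.32 in the sgEED pair (7.1e-09), and fell by 4.60 in sgKMT2D-Epi against sgControl (7e-07). DSEL, an epimerase-family gene of dermatan sulfate, rose in all 3 pairs, by 2.60 (1.1e-05), 1.67 (4.8e-04) and 1.74 (2.3e-04). Of 8 keratan sulfate enzymes, 4 rose and 1 fell in C2, 3 rose and 1 fell in the sgEED pair, and 2 rose and 2 fell in the sgKMT2D pair, where the share called was near that of all genes. CHST2, a sulfotransferase gene, rose in each, by 4.58, 2.88 and 3.06 (2.7e-08, 1.2e-06 and 7.8e-07).

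Of 16 tested hyaluronan and versican partners, 8 rose and 2 fell in C2, 7 rose and 2 fell in the sgEED pair, and 5 rose and 2 fell in the sgKMT2D pair, where the share called was under the 50.8% of all genes. HAS2, the hyaluronan synthase, rose by 6.93 (6.1e-08), 4.84 (7.3e-07) and 4.01 (1.7e-06), and FBN1, the microfibril protein fibrillin, by 6.77 (1.1e-10), 5.63 (4.2e-10) and 4.64 (1.1e-09). HAS2 and FBN1, like VCAN, also rose in sgEED-Epi (3.66 and 3.52, adjusted p 5.2e-04 and 8.1e-08) and sgKMT2D-Epi (4.71 and 3.75, 2.8e-05 and 4.7e-08) against sgControl. Of the 16 tested partners, however, 6 rose and 6 fell in sgEED-Epi (median log2 −0.08), where 48.8% of all tested genes were called. In sgKMT2D-Epi 4 rose and 10 fell (median −1.13), against 56.0% of all tested genes. HAS1, a further synthase gene, fell in both (−3.44, 4e-04, and −5.46, 7.2e-05). Of 12 tested proteases that cut these proteoglycans, 7 rose and 1 fell in C2, 8 rose in the sgEED pair, and 6 rose and 3 fell in the sgKMT2D pair. ADAMTS9, a versican-cutting protease, rose by 4.63 (2.1e-04) in sgEED-Epi and 4.48 (2.2e-04) in sgKMT2D-Epi against sgControl, to 1.16 and 1.05 CPM. Its sgControl mean of 0.042 CPM is under the level of 3 counts per library, so the size of these changes is uncertain. Of the 12 proteases, 5 rose and 2 fell in sgEED-Epi and 4 rose and 3 fell in sgKMT2D-Epi, against 48.8% and 56.0% of all tested genes called.

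Of 13 tested fibrillar collagens and fibril partners, 10 rose and 1 fell in C2 (median 6.43), 12 rose and 1 fell in the sgEED pair (4.28), and 10 rose and 1 fell in the sgKMT2D pair (3.55). COL3A1 rose by 11.09, 7.65 and 8.64 (adjusted p 7.5e-10, 7.4e-09 and 2.7e-09). COL5A1, a minor fibrillar collagen gene, fell by 9.34 (9.4e-11) in sgEED-Epi and 5.63 (1.9e-09) in sgKMT2D-Epi against sgControl, as BGN did. More of the 13 genes rose than fell there: 6 rose and 2 fell in sgEED-Epi, where 48.8% of all tested genes were called. In sgKMT2D-Epi 5 rose and 3 fell, against 56.0% of all tested genes. COL12A1 rose in both (2.37 and 1.83, adjusted p 4e-05 and 2e-04). Of 10 tested receptors bound by decorin or biglycan, 3 rose and 3 fell in C2, 5 rose and 4 fell in the sgEED pair, and 5 rose and 5 fell in the sgKMT2D pair. TLR4, an innate immune receptor, rose in each (5.78, 3.13 and 3.31; 1.9e-09, 1.1e-07 and 4.4e-08), and EGFR fell in each, by 1.84 (7e-06), 2.29 (1.2e-06) and 2.36 (6.7e-07). Of 19 tested heparan sulfate and other proteoglycans, 8 rose and 3 fell in C2, 11 rose and 3 fell in the sgEED pair, and 10 rose and 2 fell in the sgKMT2D pair; SRGN, the small intracellular proteoglycan serglycin, rose by 7.50, 5.27 and 6.25 (8.6e-10, 7.3e-09 and 1.8e-09).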

How the data were processed

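RNA-seq counts per gene were deposited by the authors, 1 table for each of 16 libraries; per the submitters' processing notes, reads were aligned to GRCh38 with STAR 2.7.1a and counted with featureCounts. Annotation release, strandedness and treatment of reads with several matches are not given in the sources used here. Symbols, exons and positions were taken from GENCODE 29, which held 56868 of 60448 identifiers (94.1%).

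The fit used edgeR 4.0.16 under R 4.3.3, with filterByExpr (18285 genes kept), TMM scaling, a model of 8 group means on all 16 libraries that leaves 8 degrees of freedom, and robust quasi-likelihood tests of 10 pairs of groups and 3 interactions. Calls were made below 0.05 after Benjamini-Hochberg adjustment over all genes tested. SEs were derived from the log2 change and its F value and are not given where a group was at 0. Folds against such a group use a floor of 3 counts per library, and no fold is given where both groups were at or under it. For groups with 1 to 5 counts, exact (Clopper-Pearson) 95% intervals of the ratio of summed counts cover counting error only. The pipeline was tested on simulated counts. Figures were drawn with matplotlib 3.10.9.

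The members and lists were chosen with earlier results of these data known. All 8 members are reported. Of each list, all tested genes are counted, and the genes named come from the 4 called ones with the largest change and at least 1 CPM in the higher group. The 3 genes most like a member, among tested genes with a proper symbol, were named for members with at least 5 CPM in some group. Alternatives were RLE scaling, no low-count filter, DESeq2 1.42.0, fits of the compared libraries alone, a replicate block, C1 as the control, a correction of GC content and length, the longest transcript as length, and each library left out in turn.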

Additional observations from a re-analysis of the deposited data

Results flagged for a closer look

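Changes from epithelial to mesenchymal cells that differed between backgrounds, by a test of the difference itself, concerned DCN, LUM and VCAN (edgeR quasi-likelihood test, 2 libraries per group, log2 scale). For DCN the change in the sgEED pair minus that in C2 was −6.58 (adjusted p 5e-07) and that in the sgKMT2D pair minus C2 −5.24 (4.6e-06), both bounds because C2-Epi held 0 counts. The change of DCN in the sgEED minus the sgKMT2D pair was −1.34 (0.013), a call that ended without any 1 of 5 libraries (adjusted p 0.052 to 0.075). For LUM the change was −5.61 (2.7e-04) for sgEED minus C2 and −4.63 (0.018) for sgKMT2D minus C2, with 2 counts in each C2-Epi library. The second of these LUM calls ended without any 1 of 3 libraries (0.051 to 0.13) and with the correction for GC content and length (0.072). VCAN gave −3.98 (2.4e-04) for sgEED minus C2, −6.21 (8.5e-06) for sgKMT2D minus C2 and 2.23 (0.011) for sgEED minus sgKMT2D, the last lost without either sgKMT2D-Mes library (0.052 each). For DCN and VCAN the epithelial levels in the edited groups, 10.1 and 15.8 CPM for DCN and 203 and 209 CPM for VCAN, were above the 0 and 3.85 CPM of C2-Epi. The mesenchymal levels of VCAN, 691 CPM in sgEED-Mes, 208 in C2-Mes and 152 in sgKMT2D-Mes, differed less than its epithelial levels did from C2-Epi. Between the edited pairs the epithelial levels of VCAN were close and the mesenchymal ones differed. LUM stood at 3.18 CPM in sgEED-Epi, 0.19 in sgKMT2D-Epi and 0.0746 in C2-Epi. Its mesenchymal levels were 140 CPM in sgEED-Mes, 16.8 in sgKMT2D-Mes and 172 in C2-Mes.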

How the results depend on the processing

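The number of the tested genes called was the same within 1.5 times under every alternative for the 3 pairs of epithelial and mesenchymal groups, both edited epithelial groups against sgControl, sgEED-Mes against either mesenchymal group and the interactions against C2. It rose from 1 to 2 in C2-Epi against C1 without the low-count filter and with the compared libraries alone, and fell from 4 to 2 in sgKMT2D-Mes against C2-Mes with the compared libraries alone. Leaving out 1 library gave 1 to 2 in sgControl against C1 (3 with all libraries) and 0 to 2 for the interaction of sgEED minus sgKMT2D (2 with all). The cause was not tested.

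Of the differences in single genes, 7 turned sign under some alternative, and none of these had passed the test. With the correction of GC content and length, LUM in sgKMT2D-Epi against sgControl was −0.94, DCN in sgEED-Mes against C2-Mes 0.13 and the BGN interaction of sgEED minus sgKMT2D 0.25. Leaving out 1 library, LUM ranged from −2.38 to 5.11 in sgControl against C1, from −0.74 to 5.29 in sgKMT2D-Epi against sgControl and from −0.64 to 0.13 in sgEED-Mes against C2-Mes, and DCN from −0.47 to 0.36 in the last. In sgKMT2D-Mes against C2-Mes, ASPN ranged from −0.59 to 0.97 and VCAN from −0.92 to 0.14. The correction ended the LUM call for sgKMT2D minus C2 (−4.51, adjusted p 0.072) and made that of BGN a call (−0.83, 0.012). Without the low-count filter VCAN in sgKMT2D-Mes against C2-Mes reached −0.46 (0.05).

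Same-numbered libraries deviated together with correlations from −0.371 to 0.25, so the numbers are not taken to pair them. With a replicate block, ASPN in sgKMT2D-Mes against C2-Mes was 0.12 in place of −0.05, VCAN in the C2 pair 5.68, and no call changed. Because the correlation was −0.371 in the C2 pair and −0.159 in sgEED-Mes against C2-Mes, the C2-Mes numbers were also crossed, a choice made after seeing the data. Then 7044 genes were called in the C2 pair and 7483 in sgEED-Mes against C2-Mes, with 6 and 4 members.

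Counts over all genes moved by more than 1.5 times in these cases. The compared libraries alone gave 3361 called genes in the C2 pair (7246 with all libraries), 9967 in C2-Epi against C1 (5620), 3567 in sgEED-Mes against C2-Mes (7664), 2112 in sgKMT2D-Mes against C2-Mes (6103) and 2130 for the interaction of sgEED minus C2 (3866). C1 as control gave 4601 in place of 8930 for sgEED-Epi. Leaving out 1 library gave 2629 to 3466 in C2-Epi against C1. In sgControl against C1 it gave 2226 without sgControl replicate 2, and 2247 and 2496 without C1 replicate 1 or 2 (4951). Without sgKMT2D-Mes replicate 1 it gave 4042 in sgKMT2D-Mes against C2-Mes, 3569 in sgEED-Mes against sgKMT2D-Mes (5686 with all) and 2425 for the interaction of sgEED minus sgKMT2D (3674). Without sgKMT2D-Mes replicate 2 the second was 3556, without sgKMT2D-Epi replicate 1 the third 2293, and without C2-Mes replicate 2 the interaction of sgKMT2D minus C2 had 6749 (4410). By the longest transcript the share of BGN was 81.7% in C1, 62.1% in C2-Mes, 32.7% in sgEED-Mes and 73.5% in sgKMT2D-Mes, and that of VCAN 81.4% in sgKMT2D-Epi. Counting error is wide where a library held few reads: 0 to 6 for PRELP, 0 or 1 for FMOD, and 0 to 8 for LUM in C1, C2-Epi, sgControl and sgKMT2D-Epi.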

Other observations

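Neighbours of 2 members gave values that the comparisons above leave out; they were chosen after their values were seen. OMD, the gene of the small leucine-rich proteoglycan osteomodulin, lies 9.5 kb from OGN on the same strand. It stood at 5.6 ± 1.66 CPM in sgKMT2D-Epi (SD, n = 2) and 0.505 ± 0.417 in sgEED-Epi, and at 0 in both libraries of C1, sgControl and C2-Epi (sgKMT2D-Epi against sgControl, edgeR quasi-likelihood test, adjusted p 6.6e-06). OGN and ASPN had 1 count each in the same sgKMT2D-Epi libraries. In the mesenchymal groups OMD stood at 1.27 ± 0.0585 CPM in C2-Mes, 0.945 ± 0.157 in sgEED-Mes and 6.85 ± 0.401 in sgKMT2D-Mes, and its change in the sgKMT2D pair did not pass (0.29 ± 0.35, adjusted p 0.53). So OMD and VCAN, at 5.6 and 209 CPM, were both above sgControl in sgKMT2D-Epi. In the main fit neither had a called change to sgKMT2D-Mes, whereas OGN and ASPN rose there. The VCAN difference was called, as a fall, without the low-count filter (−0.54, adjusted p 0.0099). It was also called with the compared libraries alone (−0.48, 4e-06).

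EDIL3, which encodes a secreted integrin-binding protein, lies 358.3 kb from VCAN. It stood at 0.317 ± 0.0853 CPM in sgControl, 9.5 ± 4.35 in sgEED-Epi and 27.2 ± 3.4 in sgKMT2D-Epi, and rose against sgControl in both (4.88 ± 0.68, adjusted p 7.2e-05, and 6.40 ± 0.66, 4.8e-06). Its level was 245 ± 37.2 CPM in sgEED-Mes, the group highest in VCAN, and 1.71 ± 0.308 in sgKMT2D-Mes. EDIL3 fell by 3.99 (SE 0.53, adjusted p 3.4e-05) in the sgKMT2D pair. HAPLN1, between VCAN and EDIL3, stood at 0.519 ± 0.324 CPM (25 counts in all) in sgEED-Mes, also its highest group, and at 0 or 1 count in each other group. On the other side of VCAN, XRCC4 stood at 15 ± 2.1 CPM in sgEED-Epi and 13.4 ± 1.12 in sgKMT2D-Epi against 5.15 ± 0.195 in sgControl and 13.9 ± 1.36 in C1, and rose against sgControl in both (1.54 and 1.38, adjusted p 1.1e-05 and 2e-05). TMEM167A, on the same side, stood at 106 ± 37.6 and 98.5 ± 15.9 CPM against 29.7 ± 4.39 in sgControl and 56.2 ± 1.59 in C1. It rose against sgControl as well (1.83 and 1.73, adjusted p 2.5e-05 and 2.9e-05). The XRCC4 levels of the edited groups were near that of C1. In the comparisons of sgEED-Epi and sgKMT2D-Epi with sgControl, 48.8% and 56.0% of all tested genes were called in either direction.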
